A study of Mus musculus with 12 samples.

Results

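Parental MIN6 cells at high passage (Pr-HP) were set against the same line at low passage (Pr-LP). MIN6 cells are mouse β cells of an islet tumour that arose in an animal whose β cells carried the SV40 large T antigen as a transgene. The parental line is a mixed population and not a clone. Pr-LP cells had been passaged 17 to 20 times and Pr-HP cells 35 to 40 times, and both were cultured in medium with 25 mM glucose and 13% heat-inactivated fetal bovine serum. Their RNA was labelled with biotin and read on the Affymetrix U74 mouse array set, which has 3 chips (A, B and C). This comparison used 6 of the 12 arrays of the series, those labelled Pr-LP or Pr-HP. The other 6 arrays hold clone 4, a subclone of low-passage MIN6, called C4-LP at passages 17 to 20 and C4-HP at passages 40 to 50. They entered no ratio between Pr-HP and Pr-LP.

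There was 1 array per population and chip and no replicate, so no test was possible, and no difference below has a replicate error. Passage number, the culture that was harvested and the array cannot be told apart. A population stands for cells grown in a dish, and for every gene below fewer cells with the transcript and less transcript per cell cannot be told apart. The only checks within the comparison were other probe sets of the same gene, which share the RNA, and control probe sets that were printed on all 3 chips.

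Pancreatic β cells take up glucose, metabolise it, close ATP-sensitive potassium (KATP) channels and release insulin granules when calcium enters through voltage-gated channels. This glucose-stimulated insulin secretion depends on islet transcription factors, on a granule exocytosis machinery shared with neurons and on the silencing of a few genes, called disallowed, that most other tissues express. Insulinoma lines are known to drift in these properties with prolonged culture, and the question of the comparison was which transcripts differ between low-passage and high-passage parental cells.

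Each deposited value is the intensity of a probe set, a group of probes against 1 transcript, in linear units. A probe set was counted as measured if it reached 100 units in at least 1 of the 2 parental arrays, which held for 23493 of 36701 probe sets (controls left out) and for 12640 of 15964 genes. Since 1 array is enough, a gene below 100 units in the other array entered through its higher side. Values under the 20th percentile of a chip (67.4, 58.2 and 29.2 units on chips A, B and C) were raised to that floor before ratios were taken, and a ratio against a value under the floor is given as at least that large. The medians of Pr-LP and Pr-HP were 215 and 214 units on chip A, 162 and 163 on chip B and 92.9 and 92.5 on chip C. Of the measured probe sets, 90.8% differed by less than 1.5-fold, and the log2 ratios of Pr-HP to Pr-LP had a median of -0.00 and an SD of 0.41. The RNA of a population went onto 3 chips, and for 37 control probe sets measured on each of them the log2 ratio had a median SD of 0.13 between chips, with 0.40 as the highest, so a 3-fold ratio (1.58 on the log2 scale) lay well outside this technical spread. That spread includes neither the culture nor the RNA preparation. Gapdh has control probes at both ends of its transcript, and the signal at the 3′ end over that at the 5′ end, a sign of RNA integrity, was 1.05, 1.01 and 1.19 in Pr-LP and 0.867, 0.953 and 1.16 in Pr-HP on chips A, B and C, and that of Actb was 1.43, 1.39 and 1.42 against 1.15, 1.28 and 1.34. Both ratios were lower in Pr-HP on each chip, and their part in the results was not tested.

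In all, 144 probe sets were at least 3-fold higher in Pr-HP, which is 0.613% of those measured, and 108 were at least 3-fold higher in Pr-LP, which is 0.46%. The first group held 115 named genes and the other 92 named genes. At 2-fold the counts were 413 (1.76%) and 324 (1.38%), and at 5-fold 43 (0.183%) and 24 (0.102%). In 18 of the 144 and 14 of the 108 the lower array was under the floor. The limit of 3-fold separated close values, since Wipi1 with 496.7 units in Pr-HP and 165.4 in Pr-LP lay just inside it (3.003-fold) and Pls3 with 564 and 188 just outside (2.99-fold).

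**Figure D1:**
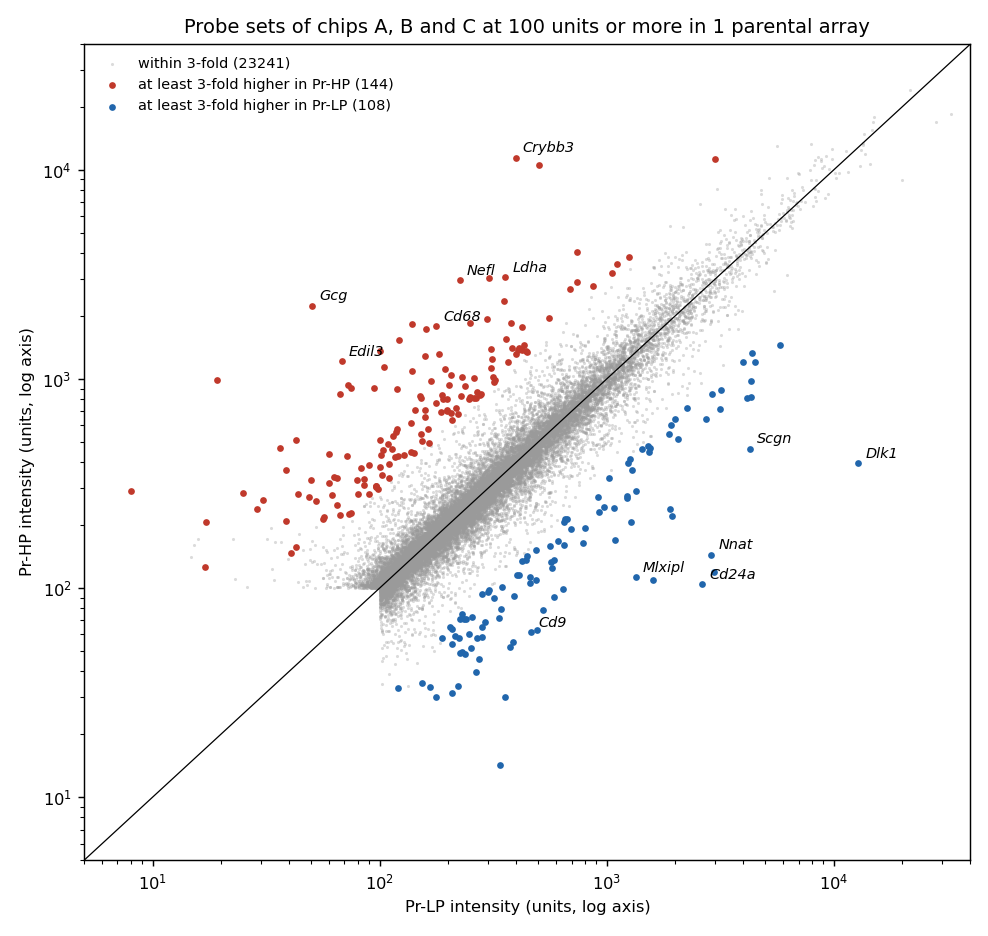
Intensity of every measured probe set in Pr-LP (x axis, units, log scale) and Pr-HP (y axis, units, log scale), 1 point per probe set, with the line of equal values. The 144 probe sets at least 3-fold higher in Pr-HP are red and the 108 at least 3-fold higher in Pr-LP are blue, and most of the other points lie close to the line.

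Of the transcripts that define a β cell, those that could be read here were mostly abundant in both populations. Ins2, an insulin gene, had 14771 units in Pr-LP and 15526 in Pr-HP (1.05-fold), a brightness at which a probe set may be saturated, so that a larger difference could be hidden. Iapp, for the islet amyloid polypeptide released with insulin, stood at 8291 and 7444 units. Chga and Chgb, for the chromogranins of the granule matrix, had 8119 and 3696 units in Pr-LP and 6729 and 4641 in Pr-HP. The ratios of Iapp, Chga and Chgb were within 1.5-fold. Slc2a2, for the glucose transporter GLUT2, had 478 units in Pr-LP and 499 in Pr-HP. Abcc8 and Kcnj11, for the 2 subunits of the KATP channel, read 1185 and 816 units in Pr-LP against 836 and 644 in Pr-HP with their brighter probe sets, which is 1.42-fold and 1.27-fold lower in Pr-HP. Another probe set of Abcc8 gave 155 and 160 units and another of Kcnj11 gave 900 and 483. No probe set with a gene symbol of its own was found for Ins1, Nkx6-1, Pcsk2 or Mafa, so these were not analysed here.

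Islet transcription factors were mostly lower in Pr-HP. Of 25 measured, 20 had a ratio below 1 and 5 above 1, none was 2-fold higher and 4 were at least 2-fold lower, and the median log2 ratio was -0.49. Over all 12640 measured genes the median was 0.00, with 2.05% at least 2-fold higher in Pr-HP and 1.57% at least 2-fold higher in Pr-LP, and 50.2% of ratios above 1. Mlxipl, for the glucose-responsive factor ChREBP, was at 1344 units in Pr-LP and 113 in Pr-HP, an 11.9-fold difference on its only probe set. Neurod1, a basic helix-loop-helix factor that binds the insulin promoter, had 604 and 211 units, and its other probe set 444 and 184, so both were more than 2-fold lower in Pr-HP. Insm1, which drives endocrine differentiation, had 1359 units in Pr-LP and 489 in Pr-HP. Myt1, another zinc finger factor of endocrine progenitors, had 1348 and 564 units, and 347 and 101 on another chip.

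Of the other islet factors, Pdx1 had 701 units in Pr-LP and 520 in Pr-HP (1.35-fold), Pax6 942 and 599 (1.57-fold), Nkx2-2 2409 and 1396 (1.73-fold), Isl1 936 and 516 (1.81-fold) and Foxa2 1897 and 1350 (1.41-fold). All 5 were lower in Pr-HP, by less than 2-fold each. The 5 factors with a ratio above 1 were Gata4, Sox9, Neurog3, Gata6 and St18, and the highest of them, St18, was 1.16-fold higher.

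Among genes of glucose sensing and KATP signalling, 0 of 18 measured were 2-fold higher in Pr-HP and 4 were at least 2-fold lower, with a median log2 ratio of -0.35. All 4 encode ion channel subunits. Cacna1c and Cacna1d, for the pore subunits of the L-type calcium channels, had 441 and 132 units in Pr-LP and 190.5 and 45.7 in Pr-HP, the latter under the floor, which makes Cacna1d at least 2.27-fold lower. The other probe set of Cacna1c differed by only 1.14-fold (178 and 156 units). Cacna2d1, for an auxiliary calcium channel subunit, had 868 and 375 units, and Kcnma1, for a calcium-activated potassium channel, 376 and 171.5. Slc2a1, for the transporter GLUT1, had the highest ratio of the list, with 281 units in Pr-LP and 403 in Pr-HP. Kcnq1, for a voltage-gated potassium channel, had 155 and 221 units on 1 probe set and 627 and 579.6 on the other.

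The granule list split. Of 17 measured genes of granule cargo and processing 2 were at least 2-fold higher in Pr-HP and 2 at least 2-fold lower, with a median log2 ratio of 0.05. Pcsk1, for the prohormone convertase PC1/3, had 425 units in Pr-LP and 1379 in Pr-HP (3.25-fold). Vgf, for a granule peptide precursor, had 2575 and 6851 units (2.66-fold). On the other side Pcsk1n, for an inhibitor of this convertase, had 4505 units in Pr-LP and 1205 in Pr-HP (3.74-fold). The convertase and its inhibitor thus lay on opposite sides of the comparison. Ptprn2, for a granule membrane protein of the tyrosine phosphatase family, had 4334 and 821 units (5.28-fold), while its probe set on chip A gave 207 and 146.

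Of 39 measured genes of the exocytosis machinery 2 were at least 2-fold higher and 3 at least 2-fold lower in Pr-HP, and the median log2 ratio was -0.04. Scgn, for the calcium-binding protein secretagogin, had 4283 units in Pr-LP and 464 in Pr-HP (9.23-fold). Cplx2, for complexin 2, which binds the assembled SNARE complex, had 1881 and 545 units, and its other probe sets 558 and 272 on chip B and 347 and 224 on chip A, so that all 3 were lower in Pr-HP, by 1.55-fold to 3.45-fold. Rph3al, for the Rab effector Noc2, had 1263 and 413 units (3.05-fold). Those that were higher in Pr-HP were Rab3c, a secretory Rab, with 89.6 units in Pr-LP and 208 in Pr-HP, and Syt4, for a synaptotagmin, with 1609 and 3423. The probe sets of Syt7, for the calcium sensor synaptotagmin 7, did not give the same size of difference, with 696 and 191 units on 1 of them (3.65-fold) and between 1.10-fold and 1.55-fold on the other 3, all lower in Pr-HP. The core SNARE genes Snap25, Stx1a and Vamp2 had 442, 228 and 1329 units in Pr-LP and 853, 197 and 1663 in Pr-HP, each within 2-fold.

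Gcg, for glucagon, the hormone of α cells, was the leading gene on the Pr-HP side. Its probe set on chip C had 502 units in Pr-LP and 10552 in Pr-HP (21.0-fold), and that on chip A 50.6 and 2244 (at least 33.3-fold). Both chips thus placed Gcg far higher in Pr-HP, and in clone 4 the chip C probe set read 3175 units in C4-LP and 2915 in C4-HP, between the parental values. Of 15 listed α-cell markers 8 were measured under a gene symbol of their own. Of these 8, 3 were past 2-fold on the Pr-HP side and the other 5 were lower by less than 2-fold, with a median log2 ratio of -0.20. A called probe set without a symbol of its own, listed by the authors as the marker Gc, entered no list count. It was lower in Pr-HP, with 241 units in Pr-LP and 70.9 in Pr-HP (3.39-fold). Car2, for carbonic anhydrase 2, had 139 units in Pr-LP and 1831 in Pr-HP (13.1-fold). Maf, for the transcription factor c-Maf, had 25.1 and 286 units on its brightest probe set (at least 4.91-fold), while those on chip A and a further one on chip B differed by 1.14-fold and 1.12-fold. Ttr, for transthyretin, an abundant α-cell transcript, went the other way with 435 units in Pr-LP and 248 in Pr-HP, and Irx2 was under the floor in both. Without Gcg, Car2 and Maf the summed intensity of the list was 2381 units in Pr-LP and 1770 in Pr-HP, against 3047 and 14439 with them. Sst, for the δ-cell hormone somatostatin, had 206 units in both populations, and Ppy, for pancreatic polypeptide, 810.5 and 560 (1.45-fold), with 361 and 128 on its other probe set.

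Cd68, for a lysosomal membrane glycoprotein widely used as a macrophage marker, had 177 units in Pr-LP and 1785 in Pr-HP (10.1-fold). Of the 11 measured macrophage and leukocyte markers only Cd68 and Lcp2, for a leukocyte adaptor, were at least 2-fold higher in Pr-HP, and Lcp2 rested on 206 units against 17.3, under the floor (at least 3.06-fold). The defining leukocyte genes Ptprc, Lyz2, Aif1, Ctss and Fcer1g were under the floor in both arrays, and Csf1r, Adgre1 and Itgam stayed under 100 units in both. The summed list was 4154 units in Pr-LP and 4933 in Pr-HP, and without Cd68 it was 3977 and 3148. Blnk, an adaptor of B cells, was lower in Pr-HP on both its probe sets, with 1531 and 450 units and with 586 and 137. Summed markers of fibroblasts (5043 and 4961 units), acinar cells (4208 and 3874) and endothelium (2279 and 2010) were at like levels in both, and none of these 3 lists had a member past 2-fold. Of 18 measured duct-cell markers 7 had a ratio above 1 and 11 below 1. Past 2-fold were Car2 on the Pr-HP side and Krt19, Krt18, Cldn4 and Prom1 on the Pr-LP side. A probe set without a symbol of its own, listed by the authors as Spp1, entered no list count. It read 304 units in Pr-LP and 3041 in Pr-HP. Krt19, for a duct keratin, had 223 units in Pr-LP and 57.6 in Pr-HP (at least 3.31-fold), and Krt18, for a keratin of simple epithelia, 181 and 78.0.

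Of 32 measured neuronal genes 9 were at least 2-fold higher in Pr-HP and 2 at least 2-fold lower, with a median log2 ratio of 0.31. Many genes of this list are shared by neuroendocrine cells. It includes genes already reported to differ on these arrays, such as Stmn2, Sox11 and Rbfox1, so its counts are partly set by that choice. Sox11, for a transcription factor of immature neurons, had 100.4 units in Pr-LP and 1354 in Pr-HP on chip A (13.5-fold), 250 and 824 on chip B, and 143 and 707 on chip C. These 3 probe sets of Sox11 were at least 3-fold higher in Pr-HP, and a further one on chip A was 2.55-fold higher. Nefl, for the neurofilament light chain, had 225 and 2971 units on chip B (13.2-fold) and 59.9 and 439 on chip A (at least 6.52-fold). Rtn1, for a reticulon of the endoplasmic reticulum, had 72.6 and 936 units (12.9-fold), and 169 and 439 on chip C. Stmn2, for a microtubule regulator of growing neurites, had 250 and 1851 units (7.41-fold), and 67.0 and 845 on a neighbouring probe set. Outside the largest 4, Rbfox1, Elavl2, Elavl4, Dcx and Nefm were between 2.39-fold and 5.43-fold higher in Pr-HP.

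Some other members of the list differed less. Tubb3, for a neuronal β-tubulin, had 1994 units in Pr-LP and 2478 in Pr-HP, Map2 had 1217 and 1082, Syp 236 and 218.5 and Uchl1 867 and 1077, all within 1.5-fold. Unc80, for a subunit of the sodium leak channel, and Tmod2, for a neuronal tropomodulin, were lower in Pr-HP, with 153 and 35.3 units for Unc80 and 996 and 496.5 for Tmod2, whose other probe sets gave 461 and 112.5 (4.10-fold) and 111 and 99.3 units.

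**Figure D2:**
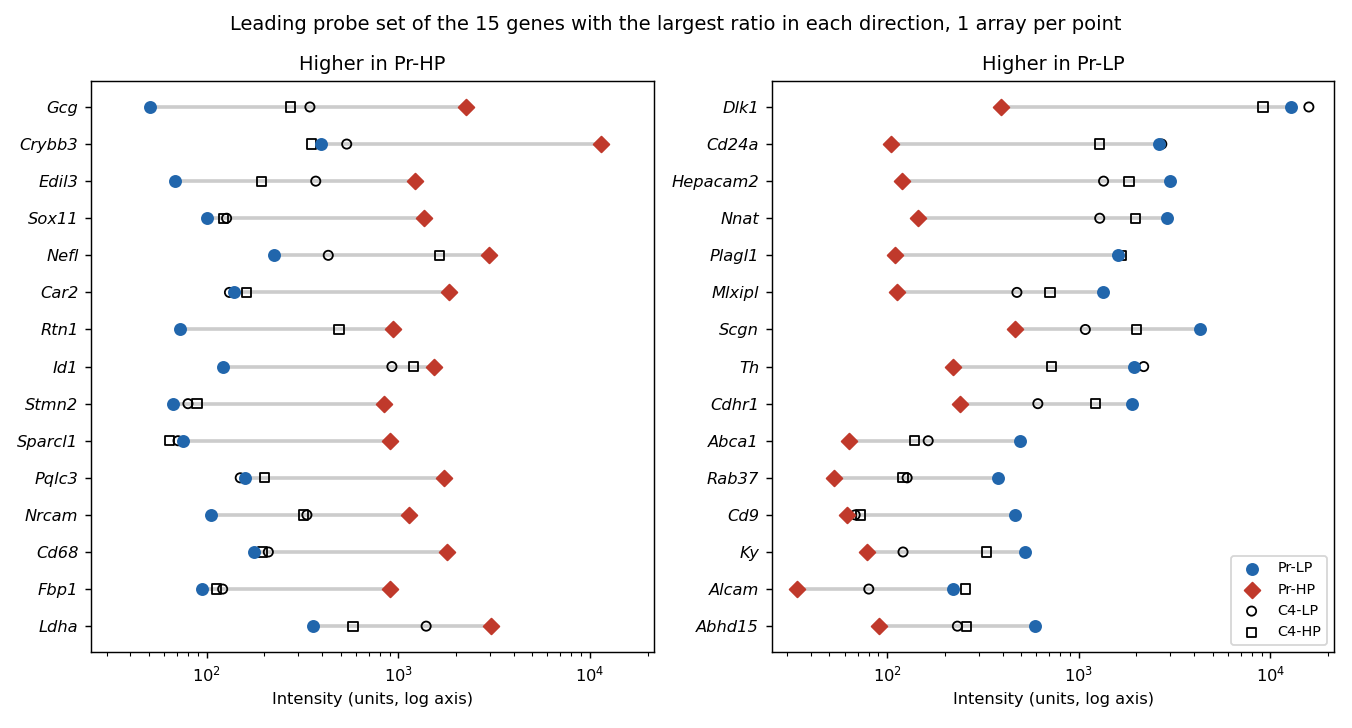
Intensity (units, log axis) of the leading probe set of the 15 genes with the largest ratio in each direction, 1 array per point; filled circles are Pr-LP, filled diamonds Pr-HP, open circles C4-LP and open squares C4-HP. Pr-HP is the highest of the 4 arrays for all 15 genes in the left panel except Rtn1, where C4-LP stood at 949 units against 936.

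Crybb3, for a β-crystallin of the eye lens, led the further genes among the 15 with the largest ratios on the Pr-HP side. It had 397 units in Pr-LP and 11438 in Pr-HP (28.8-fold), near the top of chip B, where Pr-HP had no brighter probe set. Cryba2, another β-crystallin, had 311 and 1126 units (3.62-fold). The other 9 measured crystallins were lower or within 1.5-fold, so the list as a whole had a median log2 ratio of -0.08. The lowest was Cryl1, whose crystallin is also an enzyme, with 1019.8 and 336 units (3.03-fold) and 281 and 236 on another probe set. Edil3, for an integrin ligand of the extracellular matrix, had 68.0 and 1216 units on chip B (17.9-fold), 48.9 and 272 on chip C (5.57-fold) and 17.0 and 126 on another probe set of chip C (at least 4.31-fold). The remaining probe sets of Edil3 were at 108 and 113 units and under the floor. Sparcl1, for a matricellular protein, had 74.9 and 909 units (12.1-fold), and Nrcam, for a neuronal cell adhesion molecule, 105 and 1139 (10.9-fold). Fbp1, for the gluconeogenic enzyme fructose-1,6-bisphosphatase, had 94.8 and 909.5 units (9.59-fold), and Pqlc3, for a membrane protein with PQ loops, 159 and 1741 (10.9-fold).

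Of 38 adhesion and cell surface genes measured under a gene symbol of their own, 8 were at least 2-fold lower in Pr-HP and 3 at least 2-fold higher. Their median log2 ratio was 0.01. The probe set listed by the authors as Spp1 has no symbol of its own and is not among them. It was higher in Pr-HP, with 304 units in Pr-LP and 3041 in Pr-HP. The list includes genes already reported to differ on these arrays, such as Cd24a, Hepacam2 and Cdhr1, so its counts are partly set by that choice. Cd24a, for a small glycosylphosphatidylinositol-anchored glycoprotein, had 2627 units in Pr-LP and 104 in Pr-HP (25.2-fold). Hepacam2, which encodes an immunoglobulin-like membrane protein, had 2979 and 119 units (25.1-fold). Cdhr1, a cadherin-related gene best known from photoreceptors, had 1903 and 239 units (7.96-fold). Each of these 3 has 1 probe set. Cd9, for a tetraspanin, had 465 units in Pr-LP and 61.5 in Pr-HP (at least 6.90-fold). Alcam, for a homophilic adhesion molecule, was lower in Pr-HP on all 4 of its probe sets, with 221 and 33.9 units on chip C (6.52-fold), 235 and 71.1 on chip B (3.30-fold) and bounds of 2.51-fold and 1.51-fold on the other 2. Cd44, for the hyaluronan receptor, was lower on both probe sets of chip B, with 226 and 48.8 units and with 209 and 63.4, and its 3 probe sets on chip A were under the floor. Perp, for a desmosomal membrane protein, was higher in Pr-HP with 190.0 and 803 units (4.23-fold). Cadherin and junction genes went different ways. Cdh1 (731 and 739 units), Epcam (433 and 456) and Tjp1 (931 and 985.5) lay within 1.1-fold, Cldn4 had 575 and 259.9 and Itgb1, for the integrin β1 chain, 2443 and 3704. Cdh4, a cadherin gene outside the list, was higher in Pr-HP on all 3 measured probe sets, with 432 and 1449 units on chip B and with 344 and 713 and 506 and 769.7 on chip A.

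Imprinted genes, which are expressed from 1 parental allele, were past 2-fold on the Pr-LP side alone. Of 37 measured, 7 were at least 2-fold lower in Pr-HP and 0 at least 2-fold higher, and the median log2 ratio was -0.17. This list holds genes already reported to differ on these arrays, such as Plagl1, Dlk1 and Nnat. Its counts are thus partly set by that choice. Dlk1, for a membrane protein related to the Notch ligands, had 12820.3 units in Pr-LP and 395 in Pr-HP (32.5-fold) on chip A. Its dimmer probe sets on chips B and C gave 143 and 108 units and 218 and 153, lower in Pr-HP by 1.32-fold and 1.42-fold. Meg3, a noncoding RNA of the same imprinted cluster, had 1452 and 555 units and, on a neighbouring probe set, 388 and 55.3 (at least 5.76-fold), while its 3 other measured probe sets lay within 1.2-fold. Plagl1, for a zinc finger transcription factor, was lower on all 4 probe sets and all 3 chips, with 1605 and 110 units on chip C (14.6-fold), 340 and 14.3 on chip B (at least 5.84-fold) and 357 and 30.1 on chip A (at least 5.30-fold). Nnat, for the proteolipid neuronatin, had 2891 and 144 units (20.1-fold). Peg3, for another zinc finger protein, had 5807 and 1461 units and 2728 and 642 (3.98-fold and 4.25-fold), with 451 and 340 on a dimmer probe set. The remaining members past 2-fold were Th and Ddc, which also belong to the monoamine genes. Other imprinted genes of comparable brightness differed little, among them Igf2 with 13785 units in Pr-LP and 11886 in Pr-HP and Gnas with 13158.5 and 12467. As for Ins2, probe sets this bright may be saturated, so that a larger difference could be hidden. The brightest probe set of Grb10 had 3678 and 2235 units, a log2 ratio of -0.72.

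Genes of monoamine synthesis and transport were represented by 14 measured members, of which 3 were at least 2-fold lower in Pr-HP and 1 at least 2-fold higher, with a median log2 ratio of -0.10. Th, for tyrosine hydroxylase, had 1944 units in Pr-LP and 221 in Pr-HP (8.79-fold). Ddc, for the aromatic amino acid decarboxylase that follows it, had 4387 and 1333 units (3.29-fold), and 196 and 160.5 on a dim probe set of chip C. Slc29a4, for a monoamine transporter of the plasma membrane, had 1280.2 and 206 units (6.20-fold). Tph2, for a tryptophan hydroxylase, reached 107.5 units in Pr-HP against 47.6. The vesicular transporter gene Slc18a1 (469 and 344 units) and the oxidase genes Maoa (278 and 300.4) and Maob (1799 and 2389) were within 1.5-fold.

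Ldha, for the lactate dehydrogenase subunit that β cells normally keep low, led the list of glycolysis and pyruvate metabolism and had 358 units in Pr-LP and 3059 in Pr-HP (8.54-fold) on its only probe set. Of 35 measured genes of glycolysis and pyruvate metabolism 3 were at least 2-fold higher in Pr-HP and 0 at least 2-fold lower, with 23 ratios above 1 and a median log2 ratio of 0.20. Pfkp, for the platelet phosphofructokinase, had 157 and 468 units and 103 and 346, while its probe set on chip B gave 128.5 and 142. Me1, for the cytosolic malic enzyme, had 267 and 620.0 units, and 102 and 267 on chip B. Enzymes of the same route such as Aldoa (3525 and 6055 units), Pgk1 (1739 and 3159) and Eno2 (383 and 688) were higher by less than 2-fold, while Hk1 (1464 and 1452), Pklr (386 and 375.5) and Pcx (564 and 472) were within 1.2-fold. The control probe sets of Gapdh on the 3 chips had log2 ratios between 0.46 and 0.81.

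Of 21 measured disallowed genes 5 were at least 2-fold higher in Pr-HP and 0 at least 2-fold lower, with a median log2 ratio of 0.10. These were Ldha, Maf, Arap2, Oat and Acot7. Arap2, for a GTPase-activating protein, had 158 units in Pr-LP and 655 in Pr-HP (4.14-fold), and 106.5 and 220.5 on another probe set (2.07-fold). Oat, for the mitochondrial ornithine aminotransferase, had 121 and 427 units (3.54-fold), and Acot7, for a cytosolic acyl-CoA thioesterase, 178 and 411. The other 16 were within 1.5-fold, Hk1, Igfbp4 and Smad3 among them. Maf and Ldha are counted in other lists above as well.

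Of 30 measured genes of lipogenesis and cholesterol synthesis 1 was at least 2-fold higher and 3 at least 2-fold lower in Pr-HP, with a median log2 ratio of -0.05. Below Mlxipl, described above, were Fads2, for the delta-6 desaturase, with 2584 units in Pr-LP and 1064 in Pr-HP, and Elovl5, for a fatty acid elongase, with 3773 and 1741. The 2 dimmer probe sets of Fads2 were lower by 1.30-fold and 1.76-fold. Scd1, Txnip and Fasn, known targets of ChREBP, were each lower by less than 2-fold, with 2516, 748 and 1854 units in Pr-LP and 1375, 418 and 1126 in Pr-HP. Cholesterol enzymes such as Fdps (2857 and 2818 units) and Sqle (1608 and 1826) were within 1.2-fold. Lpl, for lipoprotein lipase, went the other way with 100.1 and 509.5 units (5.09-fold), and at least 1.83-fold on a dimmer probe set. Abca1, for the cholesterol exporter, was lower in Pr-HP on both probe sets, with 495 and 63.1 units (at least 7.35-fold) and 410.4 and 116 (3.55-fold).

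The promoters of Ldha, Pcsk1 and Th are shown because each holds the cyclic AMP response element TGACGTCA, the palindrome bound by CREB and CREM factors, while the transcripts lay on opposite sides of the comparison, Ldha and Pcsk1 higher in Pr-HP and Th higher in Pr-LP. Each is the 250 bases before the annotated start (RefSeq, GRCm38.p6), written 5′ to 3′ on the strand of the gene with the motif in capitals.
Ldha, chr7:46845554-46845803, plus strand: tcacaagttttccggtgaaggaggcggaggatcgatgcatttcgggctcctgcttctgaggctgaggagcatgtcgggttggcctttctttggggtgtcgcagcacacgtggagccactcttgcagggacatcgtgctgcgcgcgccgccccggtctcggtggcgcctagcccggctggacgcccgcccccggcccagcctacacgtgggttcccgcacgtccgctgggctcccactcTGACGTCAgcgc
Pcsk1, chr13:75089607-75089856, plus strand: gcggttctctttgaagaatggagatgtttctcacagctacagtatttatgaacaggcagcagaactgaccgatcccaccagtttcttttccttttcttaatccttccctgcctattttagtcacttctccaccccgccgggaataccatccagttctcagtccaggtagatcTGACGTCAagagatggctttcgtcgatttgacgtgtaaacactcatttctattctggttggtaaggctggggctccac
Th, chr7:142899996-142900245, minus strand: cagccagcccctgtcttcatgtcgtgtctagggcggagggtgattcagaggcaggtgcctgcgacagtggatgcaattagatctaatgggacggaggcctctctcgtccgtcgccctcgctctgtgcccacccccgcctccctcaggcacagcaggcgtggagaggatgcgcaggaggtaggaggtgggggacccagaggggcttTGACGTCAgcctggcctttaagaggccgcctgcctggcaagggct
The motif reads the same on both strands and was present in the 250 bases before the start of 478 of 27025 genes with a promoter in the table (1.77%) and of 280 of 10114 measured genes (2.77%). Of the genes called 3-fold, it was present in 5 of 83 with a promoter on the Pr-HP side (6.02%), which were Cdc14b, Hlf, Hs3st2, Ldha and Pcsk1, and in 5 of 74 on the Pr-LP side (6.76%), which were Meg3, Peg3, Tenm3, Th and Tmem59l. The shares were thus alike in both directions. Crem, for a cyclic AMP responsive factor that includes repressor isoforms, had 120 units in Pr-LP and 578 in Pr-HP (4.82-fold) and 85.0 and 310 on another probe set (3.64-fold), and its 3 remaining probe sets were under the floor. A match is a description of these letters and not of binding.

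Genes of the unfolded protein response and of folding in the endoplasmic reticulum (ER) were shifted together by a small amount. Of 32 measured, 26 had a ratio above 1 and 6 below, the median log2 ratio was 0.42, 4 were at least 2-fold higher in Pr-HP and 0 at least 2-fold lower. Nupr1, for a stress-induced chromatin protein, had 139 units in Pr-LP and 358 in Pr-HP (2.57-fold). Chac1, for a glutathione-degrading enzyme induced by ER stress, had 537 and 1237 units (2.30-fold). Ero1a, for an ER oxidase, was higher on all 3 of its probe sets, by 2.18-fold to 2.61-fold, with 1804 and 4003 units on the brightest. Pdia6, for a protein disulfide isomerase, was also higher on all 3, by 2.17-fold to 3.06-fold, with 1707 and 3700.4 units on the brightest. The chaperones Hspa5 (2547 and 3158 units) and Hsp90b1 (3312 and 3772) were 1.24-fold and 1.14-fold higher, and Ddit3, for the factor CHOP, had 358 and 564 units. The 31 proteasome subunits, which served as a list of housekeeping genes, also leaned to Pr-HP, with 27 ratios above 1, a median log2 ratio of 0.31 and 0 past 2-fold. Over all 371 measured genes with a mean above 2400 units the median was 0.06.

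The promoters of Pdia6, Ero1b and Hspa5 are shown as members of the folding list with the ER stress element (CCAAT, 9 bases of any kind and CCACG), the site of ATF6 and its cofactors, searched on both strands of the same window. It stands in capitals and reads on the other strand in Ero1b.
Pdia6, chr12:17266339-17266588, plus strand: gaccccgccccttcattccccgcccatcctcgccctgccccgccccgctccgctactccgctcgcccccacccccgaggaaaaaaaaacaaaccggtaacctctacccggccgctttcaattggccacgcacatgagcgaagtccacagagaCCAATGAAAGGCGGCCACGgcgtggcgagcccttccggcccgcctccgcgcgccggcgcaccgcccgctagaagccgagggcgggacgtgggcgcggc
Ero1b, chr13:12565633-12565882, plus strand: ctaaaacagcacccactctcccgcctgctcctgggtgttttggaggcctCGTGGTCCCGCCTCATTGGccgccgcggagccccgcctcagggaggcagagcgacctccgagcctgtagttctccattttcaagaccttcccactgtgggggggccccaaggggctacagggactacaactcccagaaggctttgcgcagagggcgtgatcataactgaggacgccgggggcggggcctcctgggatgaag
Hspa5, chr2:34771840-34772089, plus strand: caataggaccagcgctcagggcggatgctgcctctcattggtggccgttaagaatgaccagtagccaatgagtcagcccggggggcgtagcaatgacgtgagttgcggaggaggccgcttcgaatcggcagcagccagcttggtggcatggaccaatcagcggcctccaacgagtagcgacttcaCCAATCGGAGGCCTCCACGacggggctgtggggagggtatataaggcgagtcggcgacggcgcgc
The element was found before 35 of the 27025 genes (0.13%), before 15 of the 10114 measured genes (0.148%) and before 7 of the 29 folding genes with a promoter in the table (24.1%). These 7 were Hspa5, Hsp90b1, Canx, Pdia6, Dnajc3, Ero1b and Creld2, and of them only Pdia6 was past 2-fold. Creld2 was the lowest, with 715 units in Pr-LP and 616.5 in Pr-HP, and Canx had 1067 and 1120.3. Ero1b had 3198 and 4560.4 units (1.43-fold). Among the genes called 3-fold the element was present in 1 of 83 on the Pr-HP side, Pdia6, and in 0 of 74 on the Pr-LP side.

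Lysosomal genes contributed 5 of 35 measured members at least 2-fold higher in Pr-HP and 0 at least 2-fold lower, although the median log2 ratio was 0.06. Apart from Cd68 these were the proteases Lgmn (198 units in Pr-LP, 800.3 in Pr-HP), Ctsl (1051 and 3223) and Ctsa (1235 and 2531), and Gnptab, for the enzyme that marks hydrolases for lysosomal sorting. Gnptab had 103 and 458 units on 1 probe set, while its other 3 differed by less than 1.4-fold and not all in the same direction. The autophagy genes Map1lc3b (1194 and 1757 units) and Sqstm1 (2115 and 3051) were higher by less than 1.5-fold. Wipi1, for a phosphoinositide-binding autophagy protein, had 424 and 1778 units (4.19-fold) and 165 and 497, and 374 and 548 on chip C. Of 22 measured immediate early genes 4 were at least 2-fold higher in Pr-HP and 0 at least 2-fold lower, with 18 ratios above 1 and a median log2 ratio of 0.21. They were Fos (85.2 and 248 units), Ier2 (182 and 410), Fosl2 (420 and 911) and the phosphatase gene Dusp1 (503 and 1036).

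Among genes of Notch and bone morphogenetic protein signalling Dlk1, described above, differed most, and Id1 and Id3, whose proteins hold basic helix-loop-helix factors away from DNA, led the Pr-HP side. Id1 had 121 units in Pr-LP and 1541 in Pr-HP (12.7-fold) and Id3 had 412 and 1402 (3.40-fold), while Id2 (961 and 1107) and Id4 (146 and 99.1) were within 1.5-fold. Hey1, a Notch target, had 336 and 695 units (2.07-fold), and Hes1, a further target, 471 and 517. With Dlk1 as the only member at least 2-fold lower, the 27 measured genes had a median log2 ratio of 0.02. Of the receptors, Notch1, Notch2 and Notch3 were within 1.3-fold. Bambi, for a decoy receptor of this signalling that was not in the list, had 440.4 and 137 units (3.22-fold lower).

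Calcium-binding and cortical proteins differed member by member, with 3 of 32 at least 2-fold higher and 2 at least 2-fold lower in Pr-HP and a median log2 ratio of 0.17. S100a10, for the light chain that pairs with annexin A2, had 738 units in Pr-LP and 4067 in Pr-HP (5.51-fold) on the brightest probe set, and its 2 others lay within 1.2-fold. Ezr, for the membrane-actin linker ezrin, had 272 and 716 units, and S100a1 178 and 402. Anxa4, for annexin A4, was lower with 2062 and 517 units on chip A (3.99-fold) and 1079 and 241 on chip C (4.47-fold), and a dim probe set gave 107 and 124. S100a6 had 141 units in Pr-LP and 63.5 in Pr-HP.

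The remaining lists had 1 or 2 members past 2-fold. Of 43 measured genes of the cell cycle and DNA replication only Ccnd2, for cyclin D2, was past 2-fold, with 257 units in Pr-LP and 650.3 in Pr-HP, and the median log2 ratio was 0.01. Mki67 (773 and 647 units), Pcna (1979 and 2434) and Cdk4 (4083 and 3112) were within 1.4-fold. Of 26 interferon and MHC class I genes Ly6e (3147 and 718 units) and Usp18 (228 and 80.7) were at least 2-fold lower in Pr-HP and the median log2 ratio was -0.07. The 2 other probe sets of Ly6e lay within 1.2-fold. Of 35 antioxidant and glutathione genes Gsto1 (239.5 and 109 units) and Txnrd2 (432 and 215) were at least 2-fold lower, with a median of -0.01. Of 7 δ-cell and PP-cell markers 5 had a ratio below 1, with a median log2 ratio of -0.22, and Rbp4, for the retinol carrier, was at least 3.66-fold lower in Pr-HP, with 247 and 60.5 units.

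**Figure D3:**
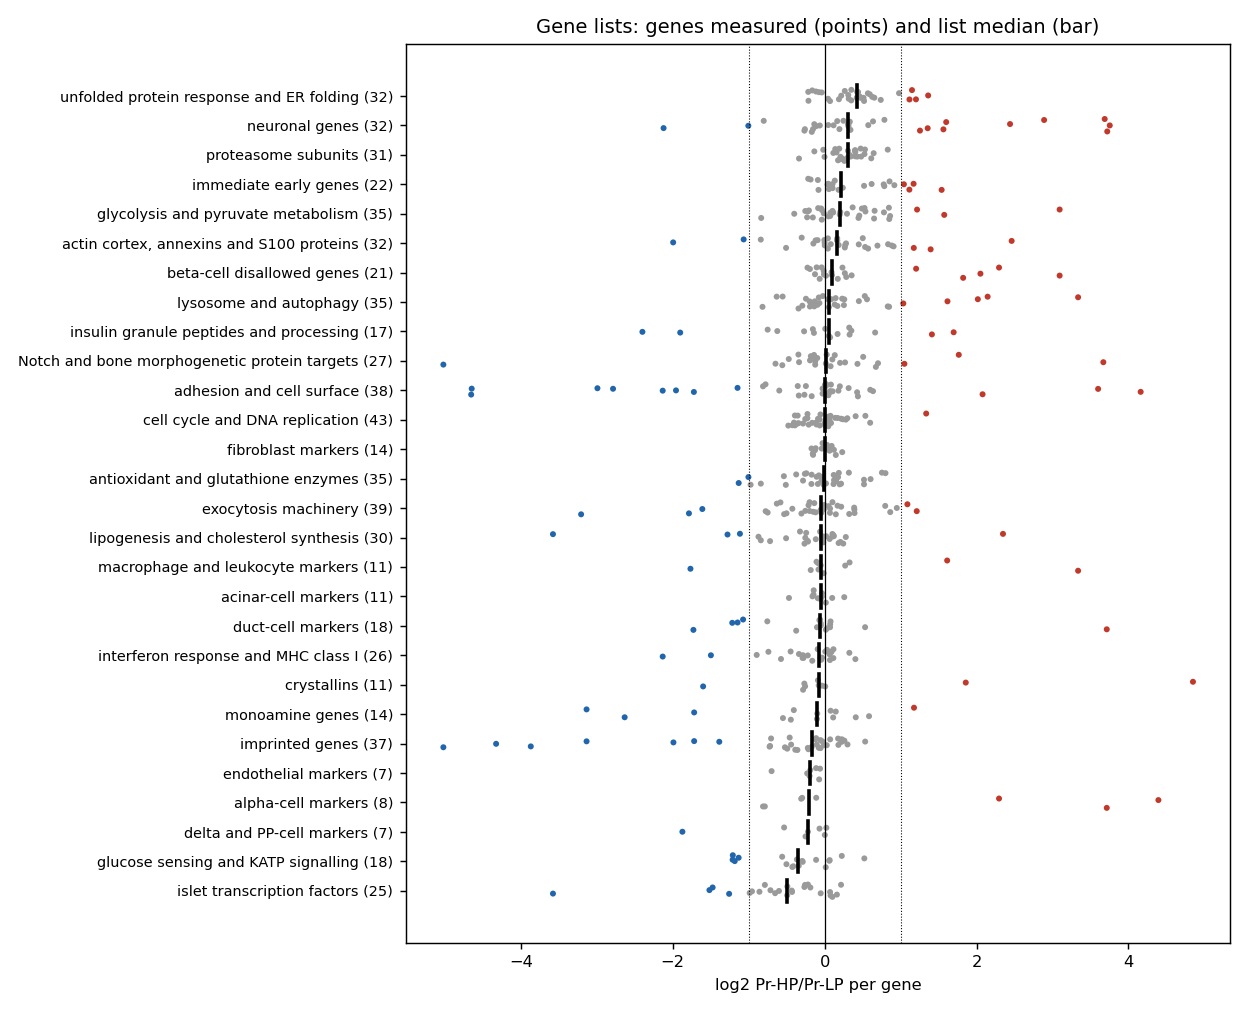
Log2 ratio of Pr-HP to Pr-LP (x axis) for every measured gene of the 28 lists (y axis, number of measured genes in brackets), 1 point per gene with its brightest probe set; black bars are list medians and dotted lines mark 2-fold. The medians run from -0.49 for islet transcription factors to 0.42 for the unfolded protein response, and the lists differ more in their outlying genes than in their medians.

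Of the 15 genes with the largest ratios on the Pr-LP side most were described above, and the rest had 1 probe set each. Rab37, for a Rab of secretory granules, had 377 units in Pr-LP and 52.5 in Pr-HP (7.18-fold). Ky, for a muscle peptidase, had 526 and 78.1 units (6.73-fold), and Abhd15, for an α/β-hydrolase, 588 and 90.9 (6.46-fold).

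Some genes outside the lists were chosen after their values were seen, because several probe sets or a related gene allowed a check. Igf1r, for the insulin-like growth factor 1 receptor, was higher in Pr-HP on all 4 probe sets and all 3 chips, with 625 units in Pr-LP and 1468 in Pr-HP on the brightest (2.35-fold) and up to 4.28-fold on the others. Slc39a8, for a zinc and manganese importer, had 120 and 892 units on chip A (7.46-fold) and 168 and 978 on chip B (5.82-fold). Tfrc, for the transferrin receptor, was lower in Pr-HP with 569 and 133 units on chip C (4.28-fold), and its 3 control probe sets, which are on every chip, gave log2 ratios between -1.74 and -1.33. The glutamate decarboxylase genes lay on opposite sides, with Gad2 at 72.0 units in Pr-LP and 426 in Pr-HP (5.93-fold) and Gad1 at 231 and 49.4 (at least 3.43-fold). Ubr4, for an ubiquitin ligase of the N-degron pathway, was higher in Pr-HP by 3.77-fold or more on 1 probe set of each chip, with 2997 and 11300.2 units on chip A, and 3 dim probe sets lay within 1.4-fold. Ndrg1, a gene responsive to hypoxia and metals, was lower on both probe sets, by 3.11-fold and 3.31-fold.

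Across genes, other probe sets of a called gene went the same way or stayed near 1. Of the 115 genes called on the Pr-HP side, 62 had another measured probe set, and of these 101 other probe sets 62 (61.4%) were at least 1.5-fold higher in Pr-HP, 44 of them at least 2-fold, 39 were within 1.5-fold and 0 were 1.5-fold lower. Over all measured probe sets, 4.82% were at least 1.5-fold higher in Pr-HP and 4.35% at least 1.5-fold lower. Of the 92 genes called on the Pr-LP side, 44 had 82 other measured probe sets, of which 45 (54.9%) were at least 1.5-fold lower in Pr-HP, 31 of them at least 2-fold, 37 were within 1.5-fold and 0 were 1.5-fold higher. Where the other probe set was on a different chip, and so on another array of the same RNA, 31 of 55 were past 1.5-fold in the same direction on either side. Altogether 14 genes had at least 2 probe sets past 3-fold on the Pr-HP side and 8 on the Pr-LP side. The first are Crem, Edil3, Gcg, Gm1673, Igf1r, Nefl, Sh3bgrl2, Slc39a8, Sox11, Stmn2, Tbcel, Tcim, Ubr4 and Wipi1, and the others Abca1, Alcam, Anxa4, Blnk, Cd44, Ndrg1, Peg3 and Plagl1. For Crem, Gm1673 and Blnk the probe sets past 3-fold are on the same chip and come from the same source sequence. They are thus not separate checks of the gene.

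**Figure D4:**
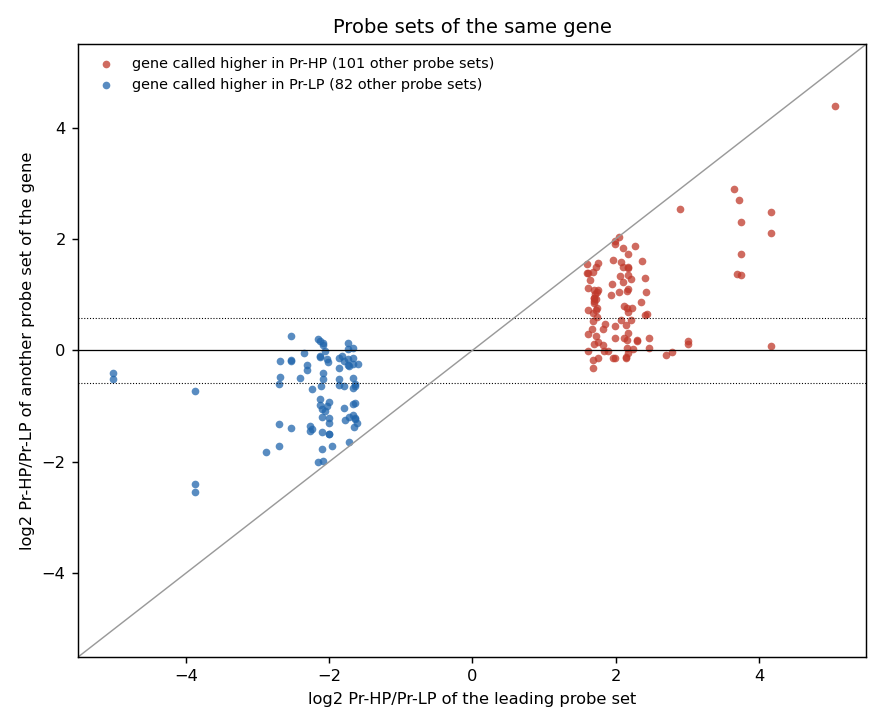
Log2 ratio of Pr-HP to Pr-LP for the leading probe set of each called gene (x axis) and for another measured probe set of the same gene (y axis), 1 point per other probe set, red for genes called on the Pr-HP side (101 points) and blue for the Pr-LP side (82 points). Dotted lines mark 1.5-fold, and no point passes the line on the opposite side.

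Clone 4 was compared over its own passages, which shares no array with the parental comparison. Over 23286 probe sets measured in clone 4, 91 (0.391%) were at least 2-fold higher in C4-HP and 212 (0.91%) at least 2-fold lower, fewer than in the parental cells in both directions. Of the 144 probe sets called on the Pr-HP side 120 were measured in clone 4, and 5 (3.47% of 144) were at least 2-fold higher in C4-HP while 20 (13.9%) were at least 2-fold lower. The 5 were the 2 probe sets of Nefl and those of Basp1, a growth cone protein gene, Upk3a and Cryba2. Nefl on chip B had 431 units in C4-LP and 1637 in C4-HP (3.80-fold). Of the 108 called on the Pr-LP side 97 were measured, and 10 (9.26%) were at least 2-fold lower in C4-HP and 10 at least 2-fold higher. The 10 that were lower at high passage in both lineages were Th, Cd24a, Aard, Mmd2, Blnk and Cd44 with 2 probe sets each, and 2 probe sets to which the annotation used here gives no single symbol. Th had 2181 units in C4-LP and 719 in C4-HP (3.03-fold), Cd24a 2711 and 1279 (2.12-fold) and Blnk 4592 and 1260 (3.65-fold). Of all probe sets past 2-fold, 11 were higher at high passage in both lineages, which is 2.66% of the 413 in the parental cells and 12.1% of the 91 in clone 4, and 14 were lower in both, which is 4.32% of 324 and 6.60% of 212.

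The clone 4 arrays also place the parental values. Of the 144 probe sets called on the Pr-HP side both clone 4 arrays were within 2-fold of Pr-LP, and not of Pr-HP, for 79, and within 2-fold of Pr-HP, and not of Pr-LP, for 13. Of the 108 called on the Pr-LP side these counts were 33 and 23. The remaining 52 of the 144 and 52 of the 108 fell in neither class. Car2 was at 131 units in C4-LP and 162 in C4-HP, like Pr-LP with 139, and Pr-HP alone was high. Id1 and Rtn1 were the reverse, since Id1 had 926 and 1201 units and Rtn1 949 and 490.2 in clone 4, near Pr-HP, and Pr-LP alone was low. Cd9, Krt19 and Gad1 were under the floor or just above it in both clone 4 arrays and in Pr-HP, and Pr-LP alone was high. Which array stood apart thus differed between genes, and Pr-LP is 1 array on each chip just as Pr-HP is.

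**Figure D5:**
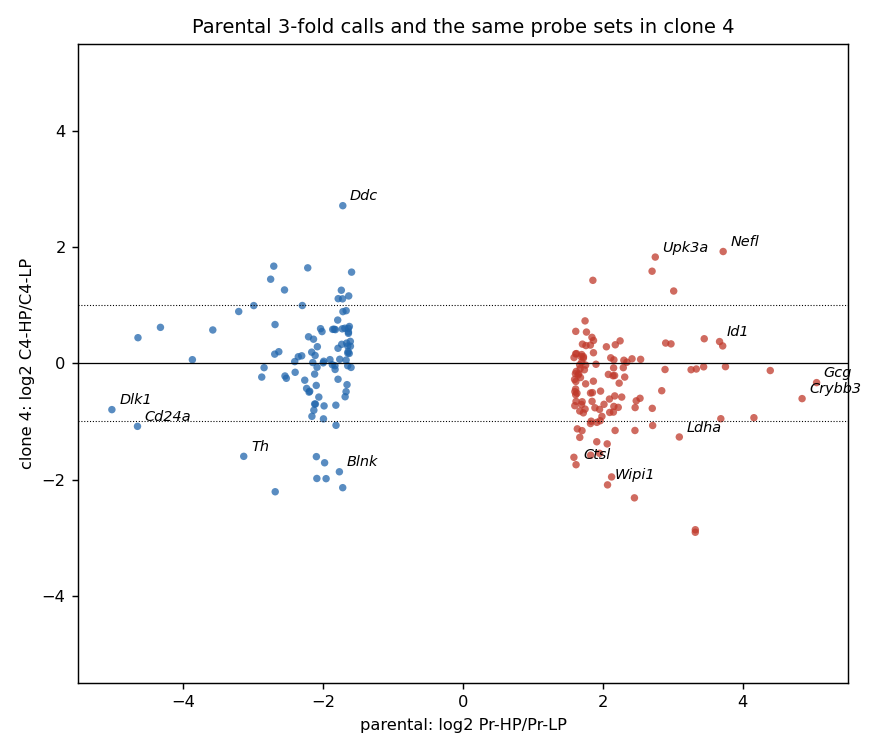
Log2 ratio of Pr-HP to Pr-LP (x axis) and of C4-HP to C4-LP (y axis) for the parental 3-fold calls that were measured in clone 4, 1 point per probe set, red for 120 on the Pr-HP side and blue for 97 on the Pr-LP side. Dotted lines mark 2-fold in clone 4, and most points lie between them.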

How the data were processed

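RNA of parental MIN6 cells and of clone 4 was measured on the 3 chips (A, B, C) of the U74 mouse set from Affymetrix, version 2, with biotin-labelled cRNA. The authors scanned the arrays and analysed them with GeneChip 5.1 software, and deposited 1 intensity per probe set and array on a linear scale. The sources used here do not give how probes were summarised and arrays normalized. Array medians within a chip were nearly equal, so the values were used unscaled. The number of arrays limits the precision.

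The 198 control probe sets were left out. Of 36701 others, 29131 had 1 gene symbol in the platform annotation, 724 several and 6846 none. Those with several or none entered no gene list, so a listed gene could be missing from its counts. A probe set was measured if it reached 100 units in 1 parental array. Values under the 20th percentile of the 2 parental arrays of a chip were raised to it. A call was a 3-fold ratio, and a gene in a list was represented by its probe set with the highest mean. The members and the 28 gene lists were chosen with earlier results of these data known, so counts past 2-fold within a list partly reflect that choice. Named in the text are the 15 genes with the largest ratio in each direction, genes with at least 2 probe sets past 3-fold, list members past 2-fold (of more than 4, the 4 with the largest ratio in each direction) and a fixed set of β-cell, islet and earlier reported genes. Others are named as examples within their list or were chosen after their values were seen. Promoters came from RefSeq (GRCm38.p6). The ratios were computed in Python 3.11.15 with numpy 2.4.6 and pandas 2.3.3. Alternatives were other floors, minimums, fold limits and normalizations, and the median over the probe sets of a gene.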

Additional observations from a re-analysis of the deposited data

Results flagged for a closer look

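For 11 probe sets past 3-fold between the parental populations, of genes that the naming rule gave, the ratio over passage was at least 2-fold in clone 4 in the opposite direction, with 1 array behind each value. The difference between the lineages was not tested. Among those higher in Pr-HP, the log2 ratio was 3.09 for Ldha in the parental cells and -1.27 in clone 4, 1.62 and -1.74 for the protease gene Ctsl, 1.82 and -1.04 for Oat, and 1.91 and -1.02 for Ubr4. Both probe sets of Wipi1 were opposite, with 2.07 and -2.09 for the brighter and 1.59 and -1.62 for the other. Among those higher in Pr-LP, Ddc had -1.72 in the parental cells and 2.72 in clone 4, where it read 150.4 units in C4-LP and 988 in C4-HP. Both leading probe sets of Alcam were opposite, with -1.72 and 1.11 on chip B and -2.71 and 1.67 on chip C. Ky had -2.75 and 1.45, and the dimmer probe set of Myt1 had -1.78 and 1.11. In all, 20 of the 144 probe sets called on the Pr-HP side (13.9%) and 10 of the 108 on the Pr-LP side (9.26%) were opposite by at least 2-fold. Over all probe sets measured in clone 4, 0.91% were at least 2-fold lower in C4-HP and 0.391% at least 2-fold higher. Examples outside the 11 were Ramp2 (1.95 and -1.55), Ret (-1.59 and 1.57) and Tenm3 (-1.63 and 1.16). Fos (1.54 and -1.52) and another probe set of Alcam (at most -1.33 in the parental cells and 1.43 in clone 4) were opposite as well. Neither of these was called at 3-fold.

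The control probe set of Il4, an interleukin of T cells, enters no count and was higher in Pr-HP on every chip. It read 25.0, 21.5 and 32.2 units in Pr-LP and 165, 219 and 282 in Pr-HP on chips A, B and C, which makes log2 ratios of 2.72, 3.35 and 3.13 without a floor. On chips A and B the Pr-LP value was under the floor, and against the floor the ratio was at least 2.44-fold and 3.76-fold. Of the other probe sets of Il4, all on chip A, 1 is among the 144 calls (43.5 and 282 units, at least 4.19-fold) and another had 15.9 and 171 units, a log2 ratio of at least 1.34.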

How the results depend on the processing

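The medians of 6 gene lists, which lay between -0.05 and 0.02 on the log2 scale, changed sign under at least 1 of the alternatives tried, that of the insulin granule genes became 0 with quantile normalization, and the other 21 kept their sign. The alternatives were a floor at 1 unit or at the 40th percentile, no minimum or a minimum of 200 units, quantile normalization, scaling to the 2%-trimmed mean, other fold limits and, for the lists, the median over the probe sets of a gene. With 2-fold or 5-fold in place of 3-fold the counts were 413 and 43 higher in Pr-HP and 324 and 24 higher in Pr-LP, as the limit itself sets. The other alternatives gave between 112 and 163 probe sets higher in Pr-HP, against 144, and between 76 and 113 higher in Pr-LP, against 108. The share of other probe sets past 1.5-fold on the Pr-HP side was 46.2% with no minimum and 76.9% with a minimum of 200 units, against 61.4%. Of 196 list medians 193 moved by less than 0.13 on the log2 scale, the median SD of control probe sets between chips. Those of δ-cell and PP-cell markers became -0.068 with the floor at the 40th percentile, of α-cell markers -0.056 with no minimum and of macrophage and leukocyte markers, one of the 6, 0.094 with a minimum of 200 units, and the cause was not tested. No paired analysis was possible because each population has 1 array per chip and the labels give no replicate numbers that pair cultures. For the same reason no array could be left out. Dim probe sets have only a bound on 1 side, and their ratios depend on the floor.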
